A study of Homo sapiens with 6 samples.

Results

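The enzymes that make and activate deoxynucleotides, the building blocks of DNA, were examined in H460 cells treated with fluoxetine. The 7 genes were TYMS, RRM1, RRM2, TK1, DUT, DTYMK and CTPS1, chosen by name from the 31762 genes in the count table, and each had 1 row. H460 is an established line from a large cell lung carcinoma, labelled as wild type, and fluoxetine is a selective serotonin reuptake inhibitor used as an antidepressant. RNA sequencing was performed on 3 control libraries and on 3 libraries of cells exposed to 20 µM fluoxetine for 24 h. The vehicle of the control cells is not given in the sources used here. All cells were grown in RPMI-1640 with serum, and the comparison asked how the transcriptome of drug-treated cells differed from that of control cells. Nothing in the labels says that the 3 libraries of a group came from separate cultures, so p-values measure only the spread between these libraries.

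Deoxynucleotides arise by 2 routes. In de novo synthesis, ribonucleotide reductase, an enzyme of large RRM1 and small RRM2 subunits, turns ribonucleotides into deoxyribonucleotides. CTP synthase (CTPS1) makes CTP, from which the deoxycytidine pool is drawn. DUT cleaves dUTP to dUMP, thymidylate synthase (TYMS) methylates dUMP to dTMP, and thymidylate kinase (DTYMK) carries dTMP on towards dTTP. In salvage, thymidine kinase 1 (TK1) in the cytosol phosphorylates thymidine directly to dTMP. Several of these genes, TYMS, RRM2 and TK1 among them, are known targets of E2F factors and are most active around S phase of the cell cycle, and antifolates and nucleoside analogues used in cancer act on this pathway.

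The library totals lay between 19343565 and 27823667 counts in control cells and between 16157507 and 17113538 counts in fluoxetine-treated cells, so every treated library was shallower than every control library. Control replicate 3, the deepest, stood furthest from its group. The chi-square per degree of freedom between it and control replicate 1 was 24.2, against 3.72 to 13.7 for the other pairs within a group and 22.8 to 52.0 for pairs across groups. As epithelial markers, the keratins KRT8, KRT18 and KRT19 were abundant, whereas the cell adhesion genes EPCAM (4 to 11 counts per library) and CDH1 (0 to 1 count) were near 0. Of 8 markers of immune, endothelial and fibroblast cells 6 had a row, and their summed level was 6.02 to 8.21 CPM (counts scaled to a common library total after TMM normalization) in control and 6.41 to 7.32 CPM in treated libraries, with PTPRC, PECAM1, VWF and COL1A2 near 0. ACTA2 was detected, at a mean of 52.3 counts per library, and 2 of the 6 had enough counts to be tested.

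Since several members are known E2F targets, the letters around their RefSeq start sites (GRCh38.p14, 250 bases before to 50 after) were searched on both strands. All 7 genes matched, with 13 windows. The E2F letters TTTCCCGC, TTTGGCGC, TTTCGCGC or TTTGCCGC occurred in 2 of the 13 windows, at TYMS and DUT, and in 3.31% of all 35116 windows in the table. The stretches are shown because they carry these letters, in capitals, read 5′ to 3′ on the plus strand, which is the strand of both genes. In TYMS (chr18:657608-657627) the match lies 39 to 32 bases before the start site. In DUT (chr15:48332153-48332179) a pair of matches facing opposite ways spans 42 to 20 bases before it.
TYMS: acggccGCGGGAAAaggcgc
DUT: tgGCGGGAAAtttcggtTTTGGCGCgc
The CCAAT box (CCAAT on either strand) occurred at RRM1, RRM2, TK1 and DTYMK, in 5 of 13 windows against 34.6% of all windows, which is near the background. RRM2 is shown because a single window held 3 copies, ahead of the start site at base 10122739 of chromosome 2, with the same letters after the box in each (plus strand, capitals mark the box).
RRM2 at chr2:10122609-10122627: ggcgcagCCAATgggaagg
RRM2 at chr2:10122639-10122657: ggcacagCCAATgggaagg
RRM2 at chr2:10122666-10122684: accaaagCCAATgggaagg
The CHR letters TTTGAA were found in 2 windows, at DUT and RRM1, against 15.2% of all windows. A match is a run of letters and not a binding site shown by experiment, and a missing match says only that these letters are not in this window.

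All 7 transcripts had lower mean levels after fluoxetine, with fold changes that correspond to between 14.8% and 31.2% less RNA. At an adjusted p under 0.05 by edgeR's quasi-likelihood test, 4 of the 7 fell (CTPS1, RRM2, DTYMK and TK1), none rose, and DUT, TYMS and RRM1 did not pass. For comparison, 5.32% of the 15646 tested genes were called lower and 7.76% higher. No member passed a minimum change of 2-fold with edgeR or under any of the 15 alternative settings, and 1.39% of tested genes did with edgeR. At an unadjusted p under 0.05 all 7 were lower, against 12.9% of tested genes. In 6 of the 7 every treated library lay below every control library, a pattern seen in 14.4% of tested genes, and the exception was TK1. The median log2 fold change was -0.44 for the members and 0.03 for all tested genes. Summed over the 7 genes, the level was 1068, 1053 and 1040 CPM in the control libraries and 761, 814 and 774 CPM in the treated ones.

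**Figure D1:**
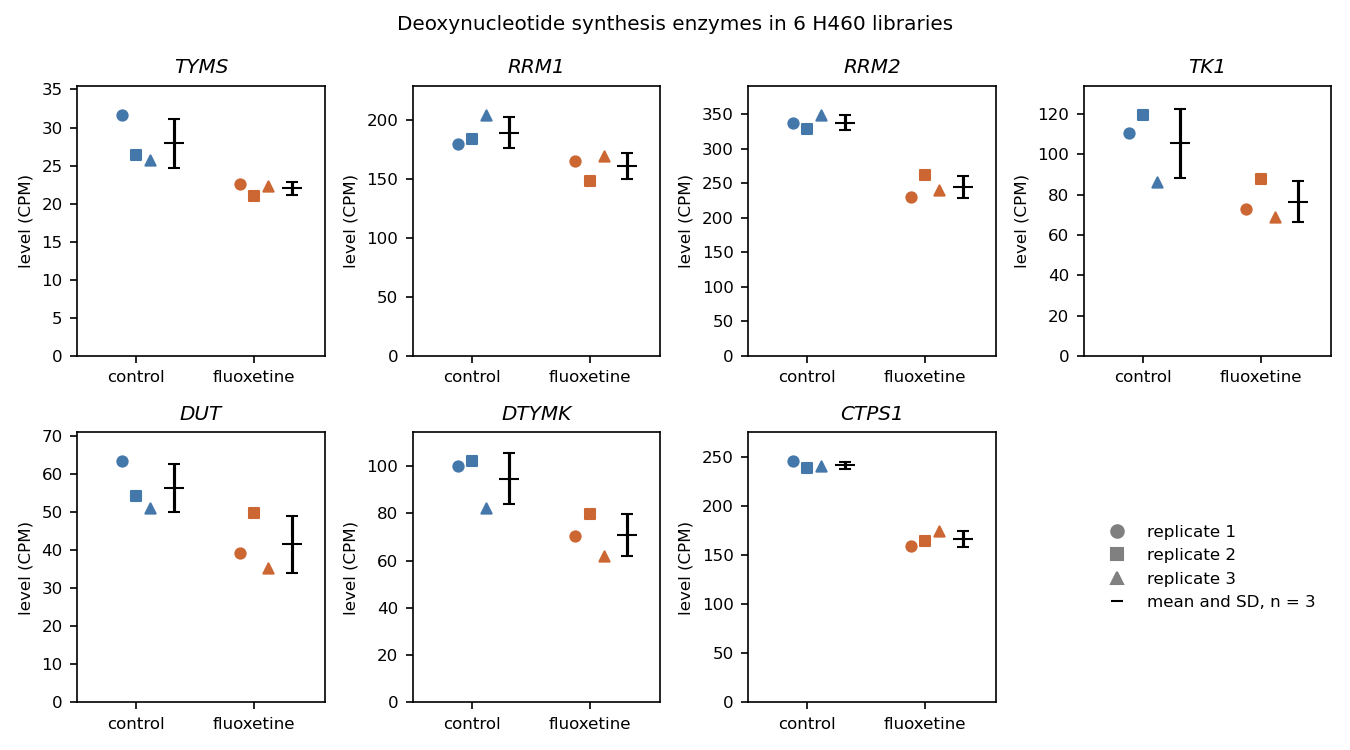
Levels of the 7 enzymes in each library, in CPM after TMM scaling with the axis starting at 0, for control (blue) and fluoxetine (orange). Symbols mark the replicate and bars the mean and SD of 3 libraries. CTPS1 and RRM2 separated widely, whereas TK1 of fluoxetine replicate 2 (88.0 CPM) lay above control replicate 3 (86.4 CPM).

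Of the ribonucleotide reductase subunits, RRM2 fell and RRM1 did not pass. RRM2 (ENSG00000171848, chr2:10120698-10131419, plus strand), the small subunit that carries the tyrosyl radical and is known to be made in S phase and degraded at mitosis, was at 337, 328 and 349 CPM in control libraries and at 231, 262 and 240 CPM in treated ones. The groups did not overlap. The mean went from 338 ± 10.6 to 244 ± 16.1 CPM (SD, n = 3), a fall by 27.8%, with a log2 fold change of -0.47 (SE 0.07, 95% interval -0.63 to -0.31, edgeR adjusted p = 0.00273). A second annotated gene on the same strand, AC007240.1, shares 20.2% of the exon bases of RRM2 and held 2 to 18 counts per library.

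RRM1 (ENSG00000167325, chr11:4094707-4138876, plus strand), the large subunit with the catalytic and regulatory sites, was at 179, 184 and 204 CPM in control libraries. It was at 165, 149 and 170 CPM in treated libraries, all below the lowest control library. The mean was 189 ± 13.3 CPM in control and 161 ± 11.1 CPM in treated cells (SD, n = 3). The log2 fold change of -0.23 (SE 0.08, 95% interval -0.41 to -0.05) was the smallest of the 7 over all 6 libraries and did not pass (edgeR adjusted p = 0.0882).

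The ratio of RRM2 to RRM1 counts within each library needs no scaling between libraries. It was 1.88, 1.78 and 1.71 in control and 1.39, 1.76 and 1.42 in treated libraries, so fluoxetine replicate 2 fell among the controls. The difference was -0.24 log2 units, with a 95% interval that included 0 (-0.56 to 0.08; exact two-sided permutation test, p = 0.2). With 3 libraries against 3 this test cannot give a p below 0.1, so no ratio could pass at 0.05. RRM2B, the alternative small subunit known as a p53 target, was at 39.1, 38.5 and 48.3 CPM in control and 49.1, 47.8 and 51.9 CPM in treated libraries. Its log2 fold change of 0.24 (SE 0.10) did not pass (edgeR adjusted p = 0.159). RRM2 counts were 8.62, 8.52 and 7.23 times those of RRM2B in control libraries and 4.70, 5.49 and 4.62 times in treated libraries. This ratio did not overlap between groups and was lower by 0.72 log2 units (a difference of -0.72, 95% interval -1.03 to -0.40, exact permutation p = 0.1, the smallest possible).

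In the thymidylate pathway, DTYMK and TK1 fell and DUT and TYMS lay close to the threshold without passing. TYMS (ENSG00000176890, chr18:657604-673578, plus strand), the enzyme inhibited by fluoropyrimidines, was at 31.7, 26.4 and 25.7 CPM in control libraries and at 22.6, 21.1 and 22.3 CPM in treated ones. The groups did not overlap, although control replicates 2 and 3 were closer to the treated libraries than to control replicate 1. The mean was 27.9 ± 3.26 CPM in control and 22.0 ± 0.837 CPM in treated cells (SD, n = 3), with a log2 fold change of -0.34 (SE 0.11, 95% interval -0.58 to -0.10, edgeR adjusted p = 0.0635). TYMS shares 967 exon bases, 39.1% of its own, with ENOSF1 on the opposite strand, and the strand setting of the counting is not given in the sources used here. ENOSF1, once described as an antisense gene to TYMS, was at 34.5, 36.1 and 39.1 CPM in control and at 47.8, 41.3 and 49.7 CPM in treated libraries. It rose by a log2 fold change of 0.34 (SE 0.10, edgeR adjusted p = 0.0475), the opposite direction to TYMS. That call did not pass with limma-voom (adjusted p = 0.0503), nor in edgeR with DESeq-type size factors (adjusted p = 0.0548) or without the filter on low counts (adjusted p = 0.0638). It was also lost in edgeR without control replicate 1 (adjusted p = 0.188), control replicate 2 (0.197), fluoxetine replicate 1 (0.225) or fluoxetine replicate 3 (0.232). How reads in the shared bases were assigned was not tested.

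DUT (ENSG00000128951, chr15:48331011-48343373, plus strand), which keeps uracil out of DNA and supplies dUMP to TYMS, was at 63.4, 54.4 and 51.3 CPM in control libraries. It was at 39.3, 49.9 and 35.4 CPM in treated libraries, fluoxetine replicate 2 lying just under the lowest control. The mean was 56.4 ± 6.31 CPM in control and 41.5 ± 7.50 CPM in treated cells (SD, n = 3), with a log2 fold change of -0.44 (SE 0.13, 95% interval -0.73 to -0.15, edgeR adjusted p = 0.0522). An antisense gene, AC023355.1, shares 14.5% of its exon bases and held 18 to 49 counts per library.

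DTYMK (ENSG00000168393, chr2:241675742-241686991, minus strand), through which dTMP from both routes must pass, was at 99.8, 102 and 82.2 CPM in control and at 70.3, 79.8 and 62.0 CPM in treated libraries. The groups did not overlap. The mean went from 94.6 ± 10.8 to 70.7 ± 8.91 CPM (SD, n = 3), which is a log2 change of -0.42 (SE 0.11, 95% interval -0.67 to -0.17, edgeR adjusted p = 0.0349). TK1 (ENSG00000167900, chr17:78174075-78187233, minus strand), a serum marker of proliferation in clinical use, was at 110, 120 and 86.4 CPM in control and at 72.7, 88.0 and 68.7 CPM in treated libraries. Here the groups overlapped. The mean went from 105 ± 17.1 to 76.5 ± 10.2 CPM (SD, n = 3), which is a log2 change of -0.46 (SE 0.13, 95% interval -0.75 to -0.18, edgeR adjusted p = 0.0403).

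The calls of this group depended on single libraries, and so did the number of all tested genes called lower. That number was 833 of 15646 with all 6 libraries. It was 549 of 15786 without control replicate 1 and 435 of 15800 without control replicate 2. It was 163 of 16154 without fluoxetine replicate 1 and 324 of 16146 without fluoxetine replicate 3. Without control replicate 3 it was 2006 of 15795, and without fluoxetine replicate 2 it was 1126 of 16182. Without control replicate 1, control replicate 2, fluoxetine replicate 1 or fluoxetine replicate 3 in turn, neither TK1 (edgeR adjusted p = 0.0784, 0.128, 0.167 and 0.118) nor DTYMK (0.0706, 0.107, 0.138 and 0.117) passed. Without control replicate 3, TK1, DTYMK, DUT and TYMS all passed (edgeR adjusted p = 0.0015, 0.00277, 0.0112 and 0.0145), as they did when trends with GC content and length were removed, which brought RRM1 below the threshold too. Without fluoxetine replicate 2, TK1, DTYMK and DUT passed (edgeR adjusted p = 0.0175, 0.016 and 0.0113). Every one of these fits gave a negative log2 fold change for all 7 members, and RRM2 and CTPS1 passed in each.

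The other nucleoside kinases TK2 and DCK did not pass. TK2, the mitochondrial thymidine kinase, was at 10.8, 10.2 and 10.7 CPM in control and 12.3, 11.8 and 12.6 CPM in treated libraries. Every treated library of TK2 was the higher, but the log2 fold change of 0.21 (SE 0.11) did not pass (edgeR adjusted p = 0.243). TK1 counts were 10.2, 11.7 and 8.10 times those of TK2 in control and 5.93, 7.43 and 5.46 times in treated libraries, without overlap (difference -0.67 log2 units, exact permutation p = 0.1). DCK, which phosphorylates deoxycytidine and its drug analogues, was at 38.9 ± 1.99 and 37.6 ± 2.80 CPM (SD, n = 3), with a log2 fold change of -0.05 (95% interval -0.25 to 0.16, edgeR adjusted p = 0.776). The ratio of TK1 to DCK was 2.75, 3.27 and 2.16 in control and 2.03, 2.15 and 1.90 in treated libraries, with barely separated groups (difference -0.41 log2 units, 95% interval -0.91 to 0.09, exact permutation p = 0.1).

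CTPS1 (ENSG00000171793, chr1:40979335-41012565, plus strand), which aminates UTP to CTP, had the largest fold change of the 7 over all 6 libraries, although TK1 without control replicate 3 (-0.62) and DUT without fluoxetine replicate 2 (-0.63) had larger log2 fold changes than CTPS1 in those fits. It was at 246, 239 and 241 CPM in control libraries and at 159, 165 and 175 CPM in treated ones. The groups lay far apart relative to their spread. The mean went from 242 ± 3.46 to 167 ± 8.10 CPM (SD, n = 3), a fall by 31.2%, with a log2 fold change of -0.54 (SE 0.07, 95% interval -0.69 to -0.39, edgeR adjusted p = 0.000869). CTPS2, the second CTP synthase, was at 28.9, 28.7 and 29.04 CPM in control and at 30.4, 26.9 and 34.0 CPM in treated libraries, which overlapped (log2 fold change 0.08, SE 0.10, 95% interval -0.15 to 0.31, edgeR adjusted p = 0.665). CTPS1 counts were 8.50, 8.33 and 8.31 times those of CTPS2 in control and 5.24, 6.12 and 5.16 times in treated libraries. This ratio did not overlap (difference -0.61 log2 units, exact permutation p = 0.1). Over the 6 ratios tested, 1 of which is not reported here, the Benjamini-Hochberg adjusted p was 0.15 for the 4 at 0.1 and 0.24 for RRM2 to RRM1.

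**Figure D2:**
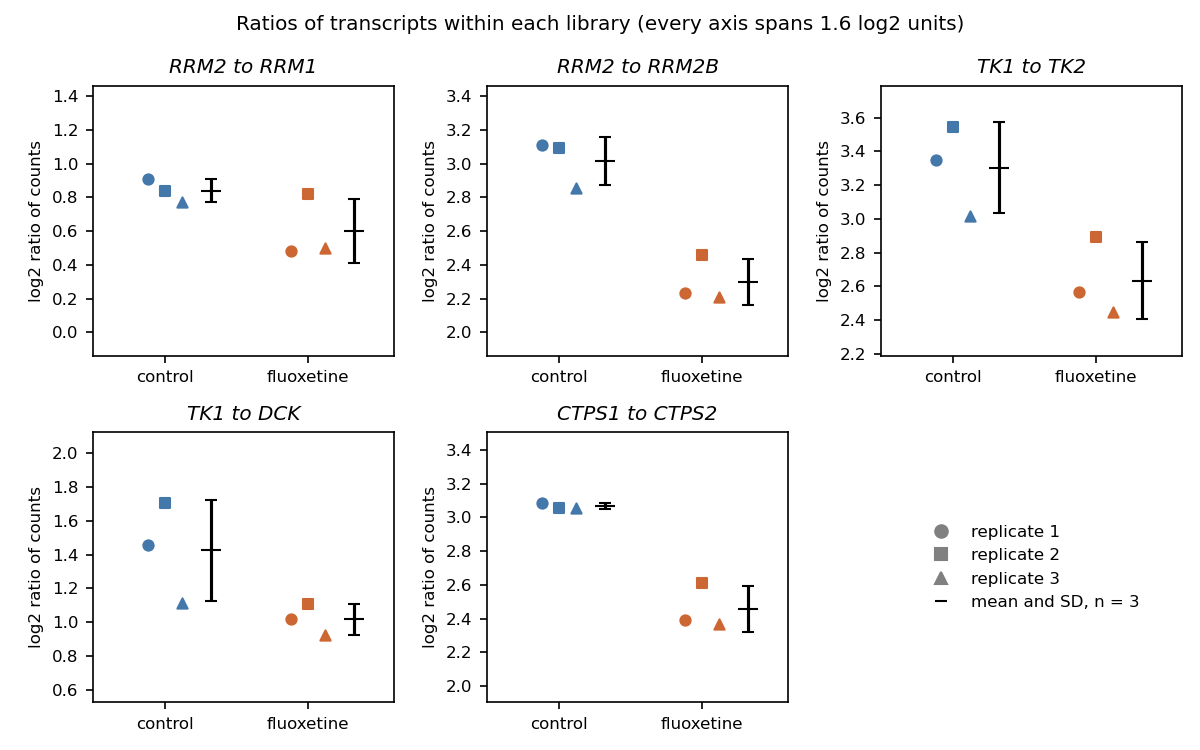
Ratios of counts of 2 transcripts within each library, as log2 values with a span of 1.6 log2 units on every axis. Symbols mark the replicate and bars the mean and SD of 3 libraries. RRM2 to RRM2B, TK1 to TK2 and CTPS1 to CTPS2 separated between the groups, RRM2 to RRM1 overlapped, and TK1 to DCK was barely separated.

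**Figure D3:**
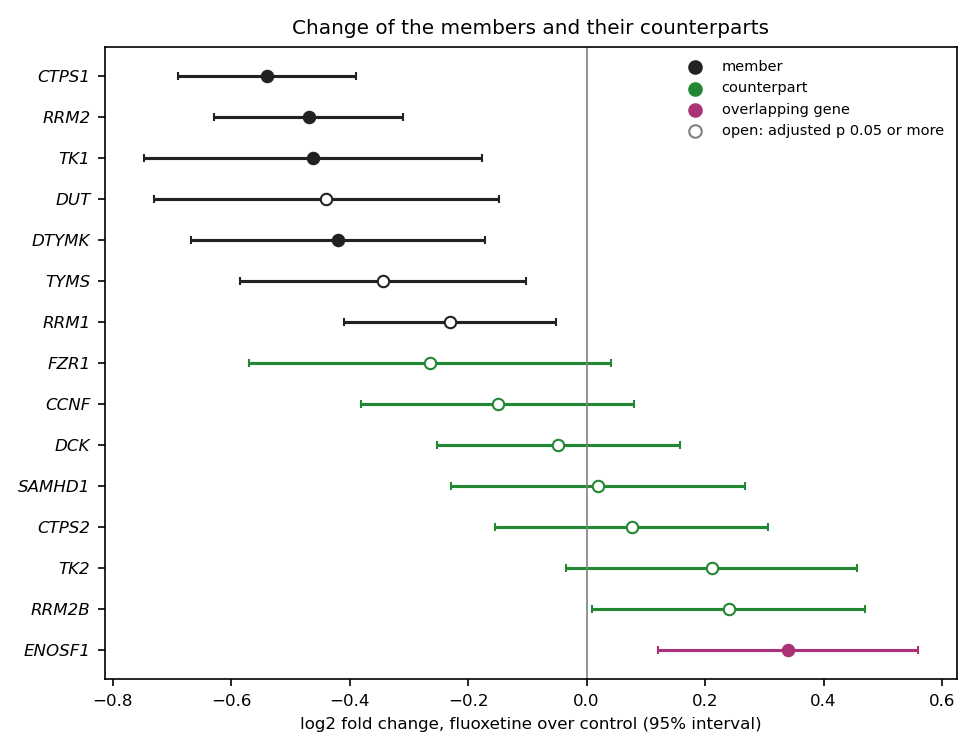
Log2 fold change, fluoxetine over control, with its 95% interval from edgeR for the 7 members (black), 7 counterparts (green) and ENOSF1 (purple), which overlaps TYMS. Open symbols had an adjusted p of 0.05 or more. All members lie below 0, and none of the counterparts shown passed. Not every counterpart is reported here.

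Levels of different genes can be compared per length. Per kilobase of all exon bases of a gene, the control level was 63.5 ± 1.99 CPM for RRM2, 56.7 ± 9.18 for TK1, 45.3 ± 3.18 for RRM1, 38.6 ± 4.42 for DTYMK, 21.0 ± 0.301 for CTPS1, 15.3 ± 1.72 for DUT and 11.3 ± 1.32 for TYMS (SD, n = 3). RRM2 and TK1, TK1 and RRM1, and RRM1 and DTYMK differed by less than the sum of their SDs, and the steps down to CTPS1, DUT and TYMS were larger than that. In treated cells the same scale gave 45.9 ± 3.03 for RRM2, 41.1 ± 5.46 for TK1, 38.6 ± 2.65 for RRM1, 28.9 ± 3.64 for DTYMK, 14.5 ± 0.704 for CTPS1, 11.3 ± 2.04 for DUT and 8.91 ± 0.339 for TYMS (SD, n = 3). The order of the means was thus the same in both groups. Per kilobase of 1 principal transcript, however, the control order was RRM2 (98.5 CPM), DTYMK (76.8), CTPS1 (75.6), TK1 (64.8), RRM1 (61.5), DUT (26.2) and TYMS (16.8), so only the places of RRM2 at the top and of DUT and TYMS at the bottom held on both scales. Exon bases shared with another gene (39.1% in TYMS, 20.2% in RRM2, 14.5% in DUT) were kept in the exon lengths. How reads there were assigned was not tested, so these levels may be too low.

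Within a group, TK1, DTYMK and DUT mostly varied together and RRM1 mostly varied the opposite way. In control replicate 3, TK1 (a deviation of -0.27 log2 units from the group mean), DTYMK (-0.20) and DUT (-0.13) were low while RRM1 (0.11) was high. In fluoxetine replicate 2, TK1 (0.21), DTYMK (0.18) and DUT (0.28) were high while RRM1 (-0.11) was low. Control replicate 2 departed from this, with TK1 (0.19) and DTYMK (0.11) above their means but DUT (-0.05) and RRM1 (-0.04) both below. TYMS was high in control replicate 1 (0.19), and CTPS1 stayed within 0.08 of its group mean in every library. The principal transcripts of TK1 (1628 bases), DTYMK (1232 bases), TYMS (1662 bases) and DUT (2147 bases) are shorter than those of RRM1 (3076 bases), RRM2 (3431 bases) and CTPS1 (3201 bases). TYMS was below its group mean in control replicate 3 (-0.11) and in fluoxetine replicate 2 (-0.06), and RRM2 was above its own in both (0.05 and 0.10). The part of transcript length in this spread was not tested.

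**Figure D4:**
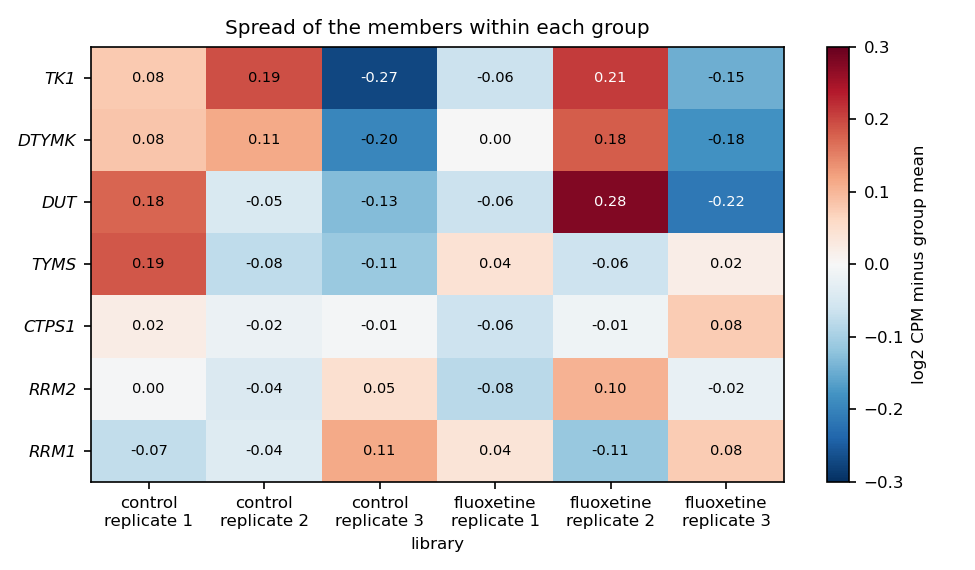
Log2 CPM of each member minus its group mean, in the 6 libraries. Red is above and blue below the mean of the group. TK1, DTYMK and DUT were low in control replicate 3 and high in fluoxetine replicate 2, where RRM1 was the reverse, and CTPS1 and RRM2 varied least.

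By Pearson's r over the 6 libraries with the mean standardised level of the 7 members, the 5 most similar tested genes were TUBB (r = 0.997), a tubulin, CKS1B (0.997), a subunit of cyclin-dependent kinases, CTSC (0.997), SNHG16 (0.997) and NOP56 (0.996). These values describe 6 points in 2 groups and follow mainly the difference between the groups. TUBB, for example, was at 1069, 1045 and 1000 CPM in control and at 742, 806 and 748 CPM in treated libraries. After each group mean was removed, the 5 most similar genes were ZNF552 (r = 0.999), RPSA, FABP3, U52111.1 and NDUFB9 (0.997), none of which passed the test between groups, and they share no name with the first 5. The first 5 had r of 0.753 (CTSC) to 0.942 (TUBB) after the group means were removed. They were picked by r over these same libraries, so these values are no separate test of likeness.

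The other genes of nucleotide metabolism showed a smaller shift with both directions. Of 67 listed genes outside the members, all tested, 16 fell, 4 rose and 47 did not pass, with a median log2 fold change of -0.14. The background was again 5.32% lower and 7.76% higher. Without fluoxetine replicate 1 the number that fell was 3, beside 163 of all 16154 genes tested in that fit. PRPS2 and SLC29A1, which passed in all 15 alternatives, were among the 3. Without fluoxetine replicate 3 the number was 8, beside 324 of 16146 tested genes. Without control replicate 3 it was 29, beside 2006 of 15795 tested genes. In the thymidylate and folate list, 3 of 12 fell and 1 rose. The mitochondrial folate enzymes MTHFD2 (log2 fold change -0.31, SE 0.07, edgeR adjusted p = 0.017) and MTHFD1L (-0.50, SE 0.10, adjusted p = 0.00985) fell, and without fluoxetine replicate 1 neither passed (edgeR adjusted p = 0.0799 and 0.0552). The median of the list was -0.18.

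De novo nucleotide synthesis upstream of the members had calls in 1 direction, beside a background of 5.32% lower and 7.76% higher. Of the 13 purine genes 6 fell and none rose, with a median of -0.26, among them PRPS2 (log2 fold change -0.42), which makes the ribose phosphate donor, and IMPDH2 (-0.39), the enzyme inhibited by mycophenolate. PAICS, PRPS1, ATIC and GMPS also fell, by 0.25 to 0.33 log2 units (from -0.33 for PAICS to -0.25 for GMPS). Without fluoxetine replicate 1 none of these 4 passed (edgeR adjusted p = 0.0644, 0.112, 0.132 and 0.145), nor did IMPDH2 (0.0512) or UMPS (0.103), and over the 15 alternatives the calls of PAICS, PRPS1, ATIC and GMPS were lost in 1, 2, 3 and 4. Of the 4 pyrimidine genes DHODH (-0.40, SE 0.11, edgeR adjusted p = 0.0413) and UMPS (-0.35, SE 0.08, adjusted p = 0.0183) fell, while CAD, the first enzyme of the route, had a log2 fold change of -0.25 that did not pass (adjusted p = 0.0643). The DHODH call was lost in 7 of the 15 alternative settings.

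Among 7 genes that degrade or clean the pools, 3 fell, against 5.32% of all tested genes. They included NUDT1 (log2 fold change -0.52), which removes oxidised purine nucleotides, and DCTPP1 (-0.38), which cleaves dCTP. The calls of NUDT1 and DCTPP1 were each lost in 4 of the 15 alternatives, without control replicate 1 or 2 or fluoxetine replicate 1 or 3 (edgeR adjusted p up to 0.121 and 0.152). SAMHD1, the deoxynucleotide triphosphatase, was at 31.2 ± 3.19 CPM in control and 31.6 ± 3.20 CPM in treated cells (SD, n = 3; log2 fold change 0.02, 95% interval -0.23 to 0.27, edgeR adjusted p = 0.937). Its sign turned in 8 of the 15 alternatives, none of which passed the threshold.

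The 27 genes of nucleoside salvage and nucleotide kinases had a median of -0.09, and 2 fell and 2 rose. Both counts were near the background of 5.32% lower and 7.76% higher among all tested genes. The pair of equilibrative nucleoside transporters went opposite ways. SLC29A1 was at 90.1, 101 and 97.7 CPM in control and at 62.8, 67.1 and 66.7 CPM in treated libraries. It fell with a log2 fold change of -0.56 (SE 0.08, edgeR adjusted p = 0.00163). SLC29A2 was at 12.1, 12.1 and 10.6 CPM in control and at 20.7, 21.0 and 20.0 CPM in treated libraries, and rose with a log2 fold change of 0.83 (SE 0.11, edgeR adjusted p = 0.00101). Both calls held in all 15 alternative settings. CDA, cytidine deaminase, rose from 5 to 7 counts per control library to 10 to 24 counts per treated library (log2 fold change 1.95, SE 0.44, edgeR adjusted p = 0.017), at a low level throughout. The CDA call was lost in edgeR without control replicate 2 (adjusted p = 0.0717), fluoxetine replicate 1 (0.0855) or fluoxetine replicate 2 (0.0606), 3 of the 12 alternatives that gave it an adjusted p.

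Of the genes that work with ribonucleotide reductase, RRM2B included, 1 of 4 rose, against 7.76% of all tested genes. GLRX, glutaredoxin, was at 115, 108 and 102 CPM in control and at 139, 160 and 142 CPM in treated libraries and rose by 0.44 on the log2 scale (SE 0.08, edgeR adjusted p = 0.00688), a call that was lost without control replicate 2 (adjusted p = 0.0542). TXN (log2 fold change 0.24, adjusted p = 0.168) and TXNRD1 (0.21, adjusted p = 0.13), thioredoxin and its reductase, did not pass. No gene of this list of 4 was below 0.

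**Figure D5:**
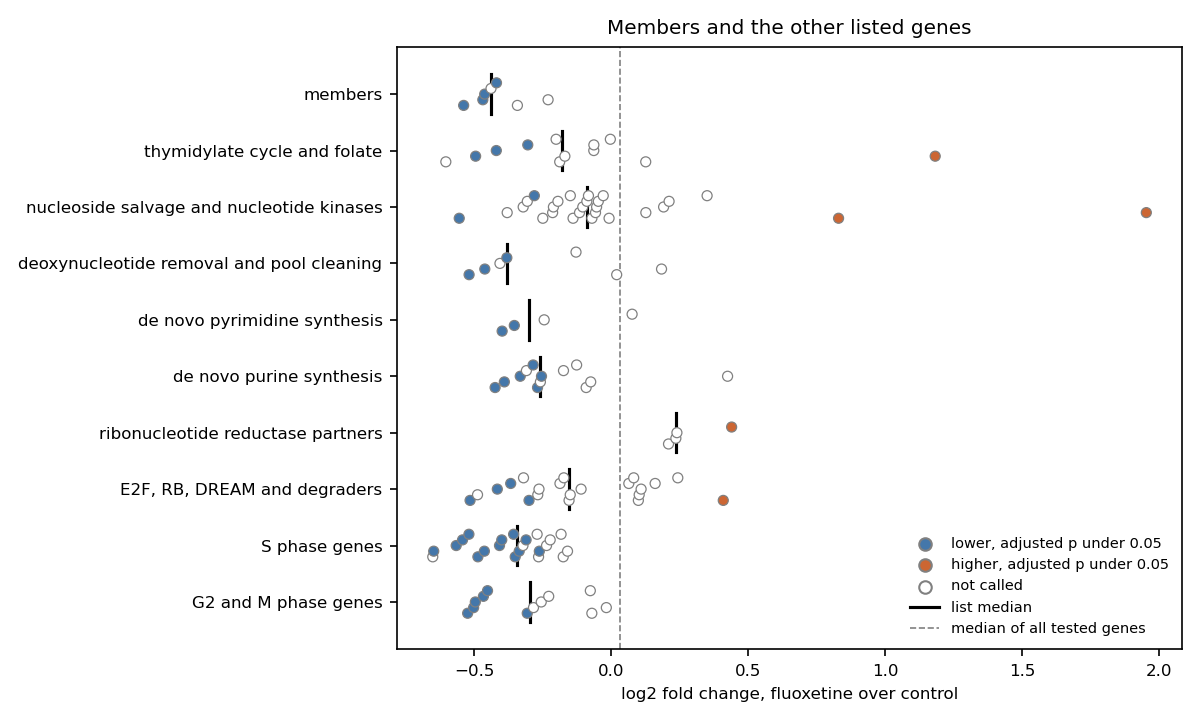
Log2 fold change, fluoxetine over control, of every tested gene in each list, 1 point per gene. Filled points had an adjusted p under 0.05 (blue lower, orange higher), the black bar is the median of the list and the dashed line the median of all tested genes (0.03). In the members (median -0.44), the S phase genes (-0.34) and the G2 and M phase genes (-0.30) every point lies below 0, and the salvage genes (-0.09) spread to both sides.

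Among regulators known to act on these genes, 4 of 21 tested fell and 1 rose. The background was 5.32% lower and 7.76% higher. The activator E2F1 (log2 fold change -0.52, SE 0.09, edgeR adjusted p = 0.0064) fell in all 15 alternatives too. E2F4 (-0.37), the E2F partner TFDP1 (-0.30) and MYBL2 (-0.42), a late cell cycle activator, also fell, with calls lost in 3, 3 and 1 of the alternatives. RBL2, the pocket protein p130 that binds E2F4 in resting cells, rose (0.41, SE 0.12, edgeR adjusted p = 0.0433), a call that was lost in 5 of the 15 alternatives. The ligase components that are known to mark members for degradation did not pass, with log2 fold changes of -0.15 for CCNF (edgeR adjusted p = 0.388) and -0.26 for FZR1 (0.241). Protein levels were not measured in these libraries.

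Markers of cycling cells moved beside the members. Of all tested genes, 5.32% were called lower and 7.76% higher. Of 22 S phase genes 13 fell and none rose, all 22 had a negative log2 fold change, and the median was -0.34. The 6 with the smallest p were UHRF1 (-0.54), GINS2 (-0.65), CHAF1B (-0.57), MCM3 (-0.41), MCM5 (-0.52) and PCNA (-0.46), and all 6 passed in every alternative. The summed level of the 22 genes was 2963 to 3124 CPM in control and 2320 to 2439 CPM in treated libraries. Of 12 G2 and M phase genes 6 fell and none rose, with a median of -0.30 and sums of 3051 to 3410 CPM against 2486 to 2875 CPM. The epithelial markers summed to 3057 to 4027 CPM in control and 2689 to 3264 CPM in treated libraries, which overlapped. Of the 3 epithelial markers tested, KRT18 fell (log2 fold change -0.72, edgeR adjusted p = 0.00162) and the other 2 did not pass. The part of these shifts in the lower level of the members was not tested. In RNA from a whole culture, fewer cells in S phase and less RNA of these genes per cell cannot be told apart.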

How the data were processed

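The authors sequenced RNA of H460 cells in 3 control and 3 fluoxetine-treated libraries. They deposited raw counts per gene, unnormalized and unpooled, and the submitters' processing notes name fastp 0.20.0, HISAT2 2.1.0, HTSeq 0.10.0 and DESeq2 1.18.1. The genome build, annotation and strand setting are not given in the sources used here. All 7 genes had the same start and end as in GENCODE 29 (GRCh38), which holds 31635 of the 31762 genes. The table also holds columns of the authors' own comparison (log2 fold change with raw and adjusted p-values), which were not used.

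Groups came from the labels. Testing used edgeR 4.0.16 under R 4.3.3 (TMM, filterByExpr, quasi-likelihood test, no covariate, Benjamini-Hochberg over 15646 genes). The methods name DESeq2, which was an alternative (1.42.0), beside limma-voom 3.58.1. CPM used TMM library sizes. At 16157507 to 27823667 counts per library every member had at least 354 counts in each. The common biological coefficient of variation over the tested genes was 0.107. Counting error was not compared with the spread of single members. Log2 ratios of counts (pseudocount 0.5) were compared by exact two-sided permutation tests. In counts simulated on 15654 genes for this comparison, edgeR recovered 9 of 50 genes changed 1.3-fold, 35 of 50 at 1.5-fold and all 50 at 2-fold, with 6 false calls. The simulation gave every gene the same dispersion, and libraries of a group differed only in total. It holds no library that stands apart, so recovery and false calls in the real libraries may differ.

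All members, their counterparts, overlapping genes, listed genes that passed (at most the 6 with the smallest p for lists with more than 6) and the 5 most correlated genes were named. TXN, TXNRD1, CAD and the cell type markers were added as list members without that rule. A few listed genes and 1 ratio are not reported here by name, and the genes stay in the list counts. The members and lists were chosen with earlier results of these data known. Replicate numbers were not shown to pair the samples, so the block is an alternative. Correlations of deviations were 0.03, 0.116 and 0.392 for equal numbers and -0.38 to 0.32 for unequal ones.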

Additional observations from a re-analysis of the deposited data

How the results depend on the processing

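The 7 members kept a negative log2 fold change under all 15 alternatives (other tools, scalings, filters and depth, each library left out, the replicate block, and GC and length trends removed, the last chosen after seeing the data). RRM2 and CTPS1 passed in all 15. Of the 7, 4 passed with edgeR, 6 with DESeq2 and 3 with limma-voom, 7 without the filter on low counts, 7 with GC and length trends removed, and 2 to 6 when 1 library was left out (2 without control replicate 1 or 2 or fluoxetine replicate 1 or 3, 6 without control replicate 3). With the replicate number as a block, which was not shown to pair the samples, all 7 passed, and 25 listed nucleotide genes fell and 8 rose against 16 and 4. Removing GC and length trends gave 25 lower, and leaving out 1 library gave 3 to 29 lower (3 without fluoxetine replicate 1, 8 without fluoxetine replicate 3, 29 without control replicate 3) and 2 to 6 higher (2 without control replicate 2). Over all 15646 tested genes the calls were 833 lower and 1214 higher with edgeR. They were 1092 and 1142 with DESeq2, 758 and 1154 with limma-voom and 1787 and 2231 with the block. They were 2254 and 1516 with GC and length trends removed, and 1516 and 1393 of 31762 genes without the filter. With 1 library left out, 15786 to 16182 genes were tested. Without control replicate 1, 2 or 3 the numbers called lower were 549, 435 and 2006, and those called higher 642, 484 and 1627. Without fluoxetine replicate 1, 2 or 3 the numbers called lower were 163, 1126 and 324, and those called higher 409, 1086 and 611. The cause was not tested. The log2 fold change of CTPS2 lay between -0.034 (without fluoxetine replicate 3) and 0.12 when 1 library was left out and turned to -0.0060 with the trends removed. That of SAMHD1 turned to -0.0062 with DESeq2, -0.0060 with size factors in edgeR, -0.016 without the filter and -0.10 with the trends removed, lay between -0.084 and 0.068 when 1 library was left out, and was below 0 without control replicate 1 or 2 or fluoxetine replicate 1 or 3. None of the 5 ratios reported changed sign, and sign flips of paired ratios could not give a p below 0.25. A member that did not pass is not shown to be unchanged at this spread.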
